A study of Mus musculus with 12 samples.

Results

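Of the 24421 entries in the deposited table of gene expression, 9 made up the ErbB receptors and their neuregulin or EGF-type ligands. They were taken by symbol: the receptors Egfr, Erbb2, Erbb3 and Erbb4, and the ligands Nrg1, Nrg2, Nrg3, Hbegf and Egf. All 9 were present in the table, and all 9 passed the filter on low values, which kept genes that reached a normalized count of 10 in 3 or more libraries. The libraries came from GFP-positive cells sorted from the cerebellum of Aldh1l1-GFP mice on the C57/BL6J background, males and females, at postnatal day 1 (P1), P7, P14 and P28, with 3 libraries at each age. All 4 groups carried the same reporter, were untreated and differed by age, and the question asked of them was how the transcriptome of cerebellar astrocytes changes after birth. In this line GFP is driven by regulatory sequence of Aldh1l1, a gene of folate metabolism used as an astrocyte marker, so the gate took every cell in which that reporter was bright enough. The labels list the 3 libraries of an age as replicates without saying that they came from separate mice, so the p-values below measure the spread between these libraries, which may be technical.

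ErbB receptors are tyrosine kinases of the cell surface that signal as pairs. Egfr, the receptor for EGF, binds EGF, heparin-binding EGF (Hbegf) and transforming growth factor alpha. Erbb4 and Erbb3 bind neuregulins, and Erbb4 also binds Hbegf. Erbb2 has no known ligand of its own and acts as a partner of the others. Erbb3 binds ligand but is a poor kinase, and it signals mostly through a partner to phosphatidylinositol 3-kinase. In the nervous system Egfr is known for its role in glial progenitors and immature astrocytes, Erbb3 for its presence in the oligodendrocyte lineage and in Schwann cells, and Erbb4 for its presence in interneurons as well as in glia. Neuregulins are best known as signals made by neurons.

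The difference in kinase function can be read in the genes themselves. The 4 stretches below are shown because the receptor whose RNA changed most in these data, Erbb3, is also the one with an altered kinase. Each stretch is 63 bases of spliced coding sequence, 5′ to 3′ on the coding strand, joining exons 19 and 20 of the transcript (GENCODE M21, GRCm38). Capitals mark the codon in exon 20 for a residue of helix C in the kinase domain, which is a glutamate in active kinases and is known to be replaced by histidine in ErbB3. The codon lies at chr11:16896894-16896896 (plus strand) in Egfr and at chr11:98433892-98433894 (plus strand) in Erbb2. In Erbb3 it lies at chr10:128572942-128572944 (minus strand), and in Erbb4 at chr1:68199025-68199027 (minus strand).
Egfr: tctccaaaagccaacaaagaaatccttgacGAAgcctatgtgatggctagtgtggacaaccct
Erbb2: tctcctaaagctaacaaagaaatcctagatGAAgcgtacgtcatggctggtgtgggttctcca
Erbb3: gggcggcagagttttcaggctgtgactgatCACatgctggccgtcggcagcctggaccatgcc
Erbb4: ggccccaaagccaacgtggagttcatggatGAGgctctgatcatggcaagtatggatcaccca
Egfr, Erbb2 and Erbb4 carried a glutamate codon at this place, and Erbb3 carried CAC, a histidine codon. The place was found with a pattern that allowed only glutamate or histidine there, and the codon alone does not settle kinase function.

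Reads assigned to genes ranged from 6399499 to 14733985 per library. The values below are normalized counts, that is, read counts divided by 1 scaling factor per library, so they can be compared between libraries for a gene but not between genes. Levels compared between genes were divided by exon length. Of 15464 genes tested, 0 to 9 per library at P1, P7 and P14 stood at least 10-fold above both other libraries of their age with a normalized count of at least 100, against 54, 78 and 76 in the P28 libraries. Nrg1 and Egf were among the 78 of P28 replicate 2, so the P28 values of the 9 genes are given library by library. The summed normalized count of 12 astrocyte markers, led per length by Aldoc and Slc1a3, ranged from 76088 to 91561 at P1. It ranged from 33593 to 62653 at P7, from 166009 to 208526 at P14 and from 375200 to 439669 at P28. Genes of other cell types were measured too. The summed count of 10 myelin genes, among them Mbp, ranged from 1570 to 2646 at P1, from 22398 to 34556 at P7, from 349451 to 397877 at P14 and from 105832 to 146521 at P28. In bulk samples of this kind, fewer cells of a type and less RNA per cell cannot be told apart.

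Egfr was the most abundant receptor transcript at every age, fell from P1 through P14, and was higher again at P28. Erbb2 fell sharply between P1 and P7 and recovered in part by P28. Erbb3 had few reads at P1, P7 and P28, and its mean at P14 was more than 10 times its mean at any of these ages. Erbb4 differed least and was lower at P28 than at P1 and P7. Changes between ages were tested in limma on log2(normalized count + 1) in 1 fit of all 12 libraries, and a change was called where the p-value, adjusted by the Benjamini-Hochberg method over all genes tested, was under 0.05. Where libraries were scaled by their totals alone instead, the median over all genes of the log2 fold change shifted by 0.060 from P1 to P7, by -0.26 from P7 to P14 and by -0.23 from P14 to P28. It shifted by -0.20, -0.49 and -0.43 from P1 to P14, P7 to P28 and P1 to P28.

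Egfr (chr11:16752203-16918158, plus strand) had normalized counts of 7126, 6087 and 5834 in the 3 P1 libraries and of 4894, 2916 and 3992 at P7. They were 2770, 2085 and 1680 at P14 and 3949, 3490 and 3223 at P28. Every P1 library lay above every library of the other ages, every P14 library lay below them, and the P7 and P28 libraries overlapped. The mean fell from 6349 ± 685 (SD, n = 3) at P1 to 2179 ± 551 at P14 and stood at 3554 ± 367 at P28. The log2 fold change was -0.85 ± 0.21 (SE) from P7 to P14 (limma, adjusted p = 0.0090) and 0.73 ± 0.21 from P14 to P28 (limma, adjusted p = 0.0307). From P1 to P7 it was -0.72 ± 0.21 (limma, adjusted p = 0.0491). That call was lost without any of 8 libraries: P1 replicates 1, 2 and 3 (adjusted p of 0.193, 0.111 and 0.0758), P7 replicates 2 and 3 (0.227 and 0.122), P14 replicate 2 (0.0715) and P28 replicates 1 and 2 (0.0519 and 0.0524). It was also lost in edgeR (0.0767), with TMM scaling (0.0577), with totals alone (0.0706), without the filter (0.0646) and with a pseudocount of 0.1 (0.0575). At -0.72 the change also lay within the study's fold change threshold of 0.75, read here on the log2 scale. The fall to P14 was not called without P7 replicate 1 (adjusted p = 0.0559). The rise at P28 was not called without P14 replicate 2 or 3 (adjusted p of 0.0810 and 0.132), without P28 replicate 1 (0.0712), with totals alone (0.120), or in a fit of P14 and P28 only (0.0901). At 0.73 it also lay within the study's threshold. Between P7 and P28 the log2 fold change was -0.12 (limma, adjusted p = 0.679), and with totals alone it was -0.61 (adjusted p = 0.0257). Over the whole span from P1 to P14, Egfr fell 2.96-fold on this scale (log2 fold change -1.57, limma, adjusted p = 9.2e-05). P28 remained 1.79-fold below P1 (log2 fold change -0.84, limma, adjusted p = 0.0065).

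Erbb2 (chr11:98412470-98437716, plus strand) had normalized counts of 1432, 1207 and 980 at P1 and of 189, 174 and 247 at P7. They were 382, 303 and 147 at P14 and 801, 701 and 431 at P28. The P1 libraries lay above all others, the P7 and P14 libraries overlapped, and the P28 libraries lay between those ages and P1. The log2 fold change from P1 to P7 was -2.56 ± 0.34 (limma, adjusted p = 0.00042), a 5.90-fold fall and the largest change of any member in that step. From P7 to P14 it was 0.35 ± 0.34 (limma, adjusted p = 0.541). From P14 to P28 Erbb2 rose, with a log2 fold change of 1.27 ± 0.34 (limma, adjusted p = 0.0244). Without P14 replicate 3, the lowest P14 library, it was 0.87 and no longer called (adjusted p = 0.0978). It was also not called without P28 replicate 1 (0.0615) or 2 (0.0515), with scaling by totals alone (0.0571), or in a fit of P14 and P28 only (0.141). Markers of ependyma or choroid, 4 genes, summed to 108212, 62742 and 957 in P14 replicates 1, 2 and 3. They summed to 103208, 180415 and 17568 in P28 replicates 1, 2 and 3. At P1 the sums ranged from 792 to 1627, beside Erbb2 counts of 980 to 1432. At P7 they ranged from 47497 to 126463, beside Erbb2 counts of 174 to 247. The part of these cells in the rise of Erbb2 or Egfr from P14 to P28 was not tested. Between P7 and P28 Erbb2 rose 3.09-fold (log2 fold change 1.63, limma, adjusted p = 0.0019). From P1 to P28 the log2 fold change was -0.93 (limma, adjusted p = 0.0479). The adjusted p was above 0.05 without any of 9 libraries, namely P1 replicates 1, 2 and 3 (0.161, 0.104 and 0.0612), P7 replicates 1, 2 and 3 (0.0618, 0.0565 and 0.0569), P14 replicate 2 (0.0580) and P28 replicates 2 and 3 (0.0559 and 0.155). It was also above 0.05 in edgeR (0.0600), with TMM scaling (0.0573), without the filter (0.0594) and with a pseudocount of 0.1 (0.0515). Mien1, a protein-coding gene on the opposite strand, overlaps Erbb2 in the annotation. It had 1301 reads over the 12 libraries, and since the counting is not stated to use strand, reads from the shared stretch cannot be assigned with certainty.

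**Figure D1:**
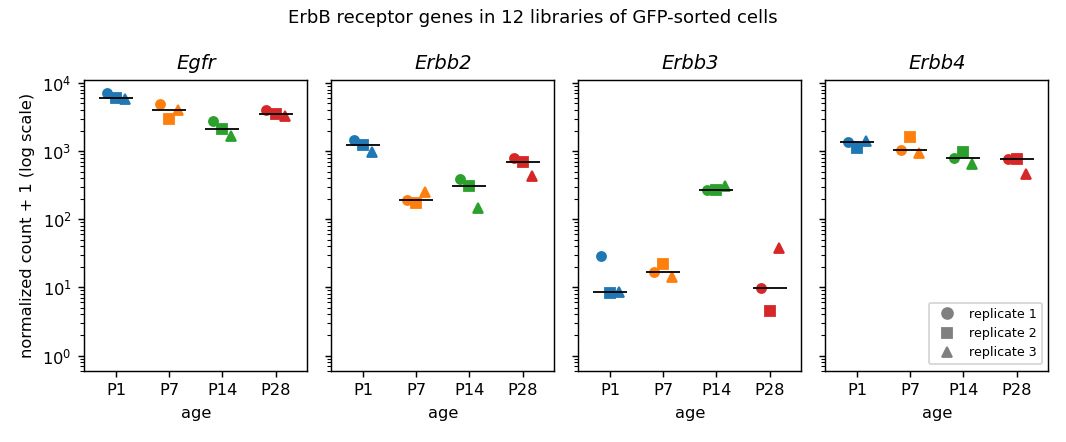
Normalized count + 1 (log axis) of the 4 receptor genes in each library, by age, with 1 symbol per replicate and a line at the median of 3 libraries. Egfr is highest at P1 and lowest at P14, Erbb2 drops between P1 and P7, and the 3 P14 libraries of Erbb3, at 263 to 306, stand above all others, the highest of which is at 36.5.

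Erbb3 (chr10:128567523-128589652, minus strand) had normalized counts of 27.7, 7.14 and 7.57 at P1 and of 15.9, 20.9 and 13.2 at P7. They were 269, 263 and 306 at P14 and 8.77, 3.54 and 36.5 at P28. The P14 libraries lay close together and above every other library. The other ages overlapped, and they rested on few reads: 10 to 45 per library at P1, 16 to 20 at P7 and 3 to 27 at P28, against 249 to 282 at P14. The log2 fold change was 4.01 ± 0.81 from P7 to P14 (limma, adjusted p = 0.0025) and -4.56 ± 0.81 from P14 to P28 (limma, adjusted p = 0.0028). Both steps were called in every fit that left out 1 library. From P1 to P7 the log2 fold change was 0.46 ± 0.81 (limma, adjusted p = 0.867), and from P1 to P28 it was -0.09 ± 0.81 (limma, adjusted p = 0.943).

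The rise of Erbb3 at P14 went with markers of the oligodendrocyte lineage. All 10 myelin genes rose from P7 to P14, with a median log2 fold change of 3.84, and 8 of the 10 fell from P14 to P28. Of 8 genes of oligodendrocyte precursors, 3 rose and 1 fell from P7 to P14, and 5 fell from P14 to P28. Their summed normalized count ranged from 4501 to 5295 at P7, from 8143 to 9121 at P14 and from 2937 to 3232 at P28. Olig1, a transcription factor of the lineage, rose by a log2 fold change of 2.27 ± 0.26 at P14 (limma, adjusted p = 2.7e-05). At P1, where Erbb3 was low, the precursor genes summed to between 8338 and 12884, as high as at P14, while the myelin genes were at their lowest. None of the 10 myelin genes was at 0 in any library, and of the precursor genes Cspg4 was at 0 in a library of P28. The part of the oligodendrocyte lineage in the change of Erbb3 was not tested.

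**Figure D2:**
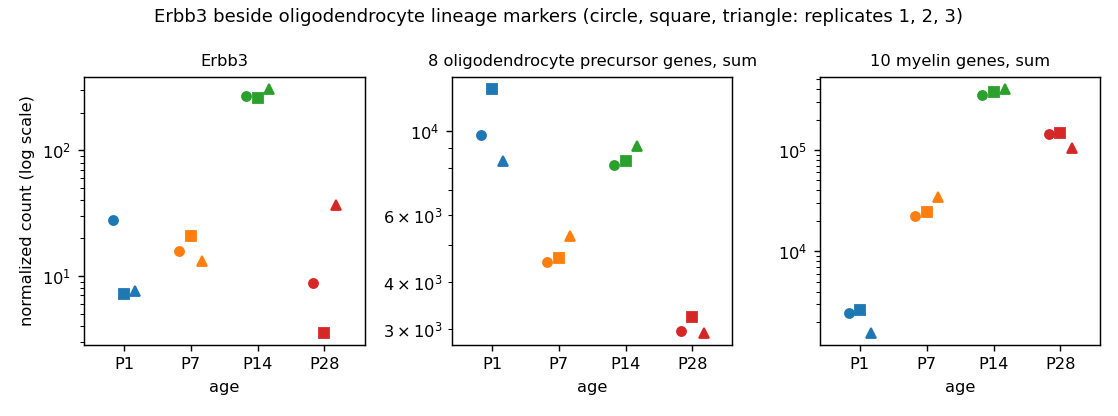
Normalized counts (log axes) of Erbb3, of the sum of 8 oligodendrocyte precursor genes and of the sum of 10 myelin genes in each library, by age; circle, square and triangle are replicates 1, 2 and 3. Erbb3 and the myelin sum are both highest at P14, but at P28 the myelin sum stays above its P7 level while Erbb3 overlaps its P7 range, and the precursor sum at P1 is as high as at P14.

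Erbb4 (chr1:68032186-69108059, minus strand) had normalized counts of 1355, 1117 and 1411 at P1 and of 1024, 1608 and 946 at P7. They were 786, 982 and 640 at P14 and 754, 761 and 453 at P28. Neighbouring ages overlapped at every step, whereas the P28 libraries lay below all P1 and P7 libraries. No consecutive step was called: the log2 fold changes were -0.15, -0.55 and -0.31, with adjusted p-values of 0.863, 0.158 and 0.458 (limma). P28 was lower than P1 by a log2 fold change of -1.01 ± 0.26 (limma, adjusted p = 0.0078). P28 was also lower than P7, by -0.86 (limma, adjusted p = 0.0169). The call against P7 was lost without P7 replicate 2 (adjusted p = 0.0946), without P28 replicate 3 (adjusted p = 0.0650) and in a fit of P7 and P28 only (0.0582). P14 against P1 had a log2 fold change of -0.70, without overlap (limma, adjusted p = 0.0703). This difference was called without P28 replicate 3 (adjusted p = 0.0330) and in a fit of P1, P7 and P14 alone (0.0283), which was added after the data had been seen. It was also called in a fit of P1 and P14 only (0.0255) and with totals alone (-0.90, adjusted p = 0.0269). With totals alone the step from P7 to P14 was called as well (-0.81, adjusted p = 0.0439). Erbb4 is also a gene of GABAergic interneurons, and 9 markers of that lineage, led by Kit and Tfap2b, summed to between 6425 and 12645 at P7 and between 487 and 4646 at the other ages. In P7 replicates 1, 2 and 3 the sums were 12645, 6425 and 12278, beside the Erbb4 counts of 1024, 1608 and 946. Replicate 2 also had the fewest reads on genes (6399499) and the lowest astrocyte sum (33593) of the P7 libraries. The part of interneurons in the level of Erbb4 was not tested.

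Per kilobase of exon, Egfr had the highest level of the 9 genes at every age by its median, from 190 normalized counts per kilobase at P14 to 556 at P1. At P1 Erbb2 followed at 241, Erbb4 at 112 and Hbegf at 52.8, and the other members were at 17.5 or below. At P7 the order after Egfr was Erbb4 at 84.7, Hbegf at 38.6 and Erbb2 at 37.8, and these last 2 did not differ beyond their spread. At P14 Hbegf, Erbb4, Erbb2 and Erbb3 lay close together, with medians of 66.0, 65.0, 60.4 and 44.7. At P28 Hbegf and Erbb2 followed Egfr at 160 and 140, with overlapping libraries.

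Expressed as a share of the length-corrected signal of the 4 receptors, Egfr at P1 made up 62.4% ± 0.59 (SD, n = 3). At P7 it made up 70.9% ± 9.0, at P14 53.9% ± 3.5 and at P28 64.1% ± 4.7. The share of Erbb2 was 25.8% ± 2.3 at P1 and 8.18% ± 1.7 at P7, then 14.6% ± 3.8 at P14 and 24.8% ± 3.9 at P28. Its shares at P7 lay below those of every other library, while the P1 and P28 shares overlapped although the level of Erbb2 was lower at P28. Erbb4 ranged from 14.8% to 30.4% at P7 and from 8.85% to 12.1% at P28. Erbb3 made up 10.2% to 17.8% at P14 and at most 1.43% in any library of another age. These shares are given as a description and were not tested.

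Apart from Hbegf, the ligand genes had lower median levels per kilobase than Egfr, Erbb2 and Erbb4 at every age. Of their 15 consecutive steps, limma and edgeR called 0, with 1 at an unadjusted p under 0.05 in limma (Nrg2 from P1 to P7). DESeq2 called 3, the steps of Nrg1, Hbegf and Egf from P14 to P28, with adjusted p-values of 0.0332, 0.0474 and 0.0461. Of the 5, Hbegf had the highest median per length at every age. The P28 libraries of Nrg1, Nrg3 and Egf differed from one another by more than the libraries of any other age did.

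Hbegf encodes a ligand of Egfr and Erbb4 that is made as a membrane-bound precursor (chr18:36504927-36515805, minus strand). Its normalized counts were 126, 307 and 117 at P1 and 91.6, 85.1 and 112 at P7. They were 157, 170 and 143 at P14 and 380, 694 and 135 at P28. The P7 libraries lay below all others, and at P28 replicate 3 was within the range of P1 while replicates 1 and 2 were above every other library. Hbegf was higher at P28 than at P7 by a log2 fold change of 1.77 ± 0.53 (limma, adjusted p = 0.0159), a call lost without P28 replicate 2 (log2 fold change 1.24, adjusted p = 0.0665) and without P7 replicate 2 (adjusted p = 0.0511). It was also lost with totals alone (1.28, adjusted p = 0.0606) and in a fit of P7 and P28 only (adjusted p = 0.0554). The rise from P14 to P28 was 1.07 ± 0.53 (limma, adjusted p = 0.190), and without P28 replicate 3 it was 1.71 with an adjusted p of 0.0211. Without the same library P28 was also higher than P1, by 1.63 (adjusted p = 0.0115), against 0.99 and an adjusted p of 0.162 with all libraries.

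Nrg1 encodes the neuregulin that binds Erbb3 and Erbb4 (chr8:31814551-32884029, minus strand). Its normalized counts were 138, 101 and 151 at P1, 82.8, 79.8 and 55.8 at P7 and 32.8, 25.4 and 38.0 at P14. The P28 libraries held 1.46, 1045 and 79.8, from 1, 886 and 59 reads. From P1 through P14 the ages did not overlap and each was lower than the one before, while the P28 libraries lay below, above and within the range of all the others. With P28 in the fit the SE of every step was 1.42, and the log2 fold changes of -0.83 from P1 to P7 and -1.16 from P7 to P14 had adjusted p-values of 0.864 and 0.641 (limma). In the added fit of P1, P7 and P14 alone, Nrg1 fell from P7 to P14 (log2 fold change -1.16, adjusted p = 0.0363) and from P1 to P14 (-1.98, adjusted p = 0.0019, and 0.0090 in a fit of P1 and P14 only). With all 12 libraries, the adjusted p from P1 to P14 was 0.371 in limma, 0.250 in edgeR and 0.270 in DESeq2. From P7 to P14 it was 0.545 in edgeR and 0.584 in DESeq2. The P28 value turned with 1 library: against P14 the log2 fold change was 0.86 with all 3 P28 libraries, -1.21 without replicate 2 and 3.15 without replicate 1 (adjusted p = 0.0176). Without replicate 2, P28 was lower than P1 (log2 fold change -3.19, adjusted p = 0.0297).

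Neurons are the known source of Nrg1 in many tissues. Here 6 pan-neuronal genes, led by Snap25 and Stmn2, summed to between 1838 and 5235 at P1 and to between 20158 and 37160 at P14. Of the 6, 3 rose and 0 fell from P1 to P14, and 2 rose and 2 fell from P7 to P14. The part of neuronal RNA in the Nrg1 counts was not tested.

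Egf encodes the founding ligand of the family (chr3:129677565-129755316, minus strand). It had normalized counts of 25.8, 121 and 37.9 at P1, 37.4, 38.0 and 10.9 at P7, 4.24, 3.17 and 7.60 at P14 and 1.46, 159 and 1.35 at P28. The P14 libraries lay below all P1 and P7 libraries, and at P28 replicates 1 and 3 had 1 read each while replicate 2 had 135. The log2 fold change from P1 to P14 was -3.13 ± 1.33 (limma, adjusted p = 0.115). It was called in a fit of P1 and P14 only (adjusted p = 0.0135) and in DESeq2 (-3.62, adjusted p = 0.0273), but not in edgeR (-3.54, adjusted p = 0.0997). In the added fit of P1, P7 and P14 it was called with an adjusted p of 0.0062, and so was the change of -2.19 from P7 to P14, with an adjusted p of 0.0387. Without P28 replicate 2, the fall from P1 to P14 was called with all ages in the fit (adjusted p = 0.0114), and P28 was lower than P1 (log2 fold change -4.38, adjusted p = 0.0021) and than P7 (-3.44, adjusted p = 0.0079).

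Nrg2 encodes a second neuregulin that binds Erbb3 and Erbb4 (chr18:36017652-36197380, minus strand). Its normalized counts were 4.31, 15.7 and 5.30 at P1, 35.8, 32.7 and 33.3 at P7, 47.7, 16.9 and 105 at P14 and 20.5, 46.0 and 114 at P28. The P1 libraries lay below all others, and the later ages overlapped. Nrg2 was higher at P28 than at P1 by a log2 fold change of 2.56 ± 0.83 (limma, adjusted p = 0.0275). It was also higher at P14 than at P1, by 2.46 (limma, adjusted p = 0.0497). The call at P28 was lost without P1 replicate 1 (adjusted p = 0.0997) or 3 (0.0858) and without P28 replicate 3 (0.0885), as well as in a fit of P1 and P28 only (0.0830). The call at P14 was lost without any of 7 libraries: P1 replicates 1 and 3 (0.1697 and 0.144), P7 replicates 1, 2 and 3 (0.0730, 0.0689 and 0.0726) and P14 replicates 1 and 3 (0.110 and 0.188). It was also lost with totals alone (0.0576), without the filter (0.0774), with a pseudocount of 0.1 (0.0617) or 10 (0.0549), in a fit of P1 and P14 only (0.0509), and with the replicate number as a block, at an adjusted p of 0.0574. From P1 to P7 the log2 fold change was 2.08 (limma, adjusted p = 0.165, and 0.0334 in a fit of P1 and P7 only).

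Nrg3 encodes a neuregulin that binds Erbb4 (chr14:38368952-39473088, minus strand). Its normalized counts were 62.1, 45.7 and 108 at P1, 25.5, 73.3 and 20.2 at P7, 47.7, 46.5 and 80.4 at P14 and 123, 16.5 and 0 at P28. Every age overlapped every other, and no comparison was called. Without P28 replicate 1, P28 was lower than P14, P7 and P1, with log2 fold changes of -3.78, -3.05 and -4.03 (adjusted p of 0.0242, 0.0307 and 0.0087). The P28 library at 0 allows up to 3 reads, a normalized count of 4.06, which covers counting error only. An antisense gene of this locus, Nrg3os, had 82 reads over the 12 libraries, and its reads cannot be told from those of Nrg3 without strand.

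**Figure D3:**
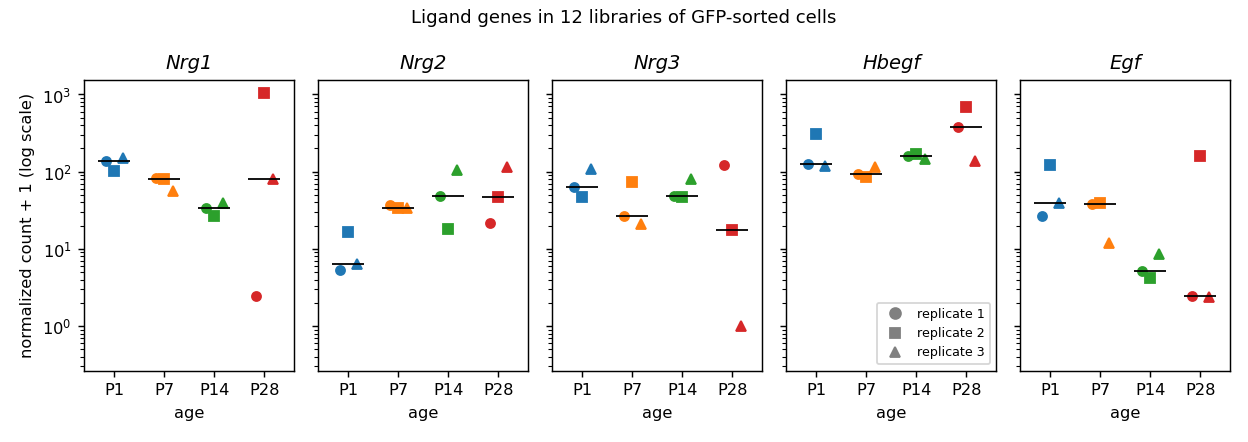
Normalized count + 1 (log axis) of the 5 ligand genes in each library, by age, with 1 symbol per replicate and a line at the median of 3 libraries. Nrg1 steps down from P1 to P14, while Egf overlaps between P1 and P7 and is lower at P14. Neither fall from P1 to P14 is called in the limma fit of all 12 libraries. Both genes spread at P28, where replicate 2 stands at 1045 and 159.

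Counted over the 9 genes, 0 rose and 2 fell from P1 to P7, where 7.7% of all genes tested were called, 3.47% higher and 4.24% lower. From P7 to P14, 1 rose and 1 fell, beside 20.9% of all genes (10.8% higher and 10% lower). From P14 to P28, 2 rose and 1 fell, beside 14.4% of all genes (5.68% higher and 8.76% lower). Against P1, 2 rose and 2 fell at P14, beside 20.4% of all genes (10.4% higher and 9.99% lower), and 1 rose and 3 fell at P28, beside 34.6% (14.6% higher and 20% lower). Between P7 and P28, 2 rose and 1 fell, beside 39.2% of all genes (16.2% higher and 23% lower). The libraries of the ages compared did not overlap for 5 of the 9 from P1 to P7 (38.3% of all genes), 5 from P7 to P14 (46.1%), 3 from P14 to P28 (26.1%), 7 from P1 to P14 (41.8%), 3 from P7 to P28 (48.3%) and 4 from P1 to P28 (41.9%). Scaled by totals alone, the share of higher calls among all called genes was 32.7% from P7 to P14, against 51.9%, and 18.9% from P14 to P28, against 39.3%. It was 36.3% from P1 to P14 (against 51.0%), 20.9% from P7 to P28 (against 41.4%) and 20.9% from P1 to P28 (against 42.3%). In limma with all 12 libraries, the called falls from P1 were those of Egfr, Erbb2 and Erbb4. The falls of Nrg1 and Egf from P1 to P14 were called only in some of the alternatives given above. The calls that rose from P1 were Erbb3 and Nrg2 at P14 and Nrg2 at P28. The median log2 fold change of the 9 was -0.78, 0.35 and 0.73 over the 3 consecutive steps, against 0.037, -0.086 and -0.12 over all genes. The median from P14 to P28 depends on P28 replicate 2. Nrg1 and Egf lay above it in that step, at 0.86 and 0.77, and were at -1.21 and -1.25 without that library.

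**Figure D4:**
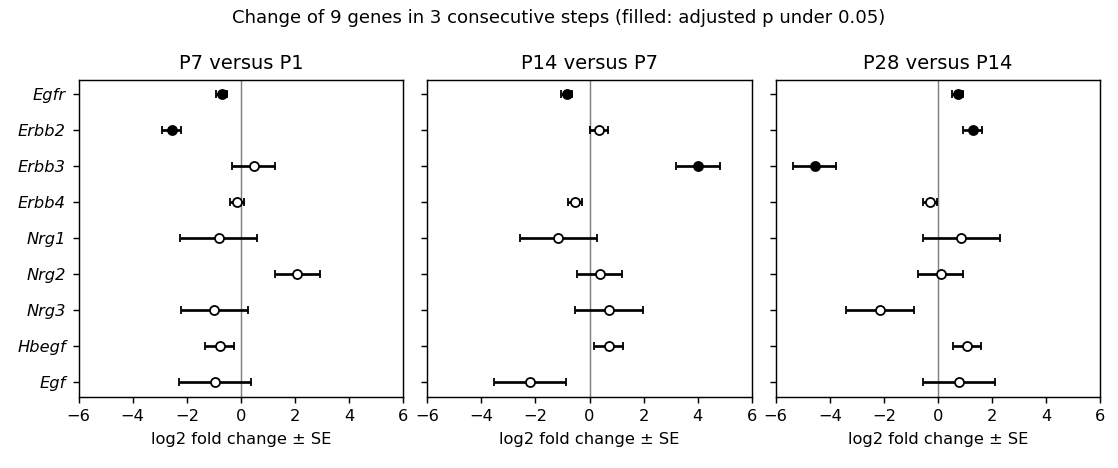
Log2 fold change ± SE of the 9 genes in each of the 3 consecutive steps, from limma on log2(normalized count + 1); filled points have an adjusted p under 0.05. The filled points are Egfr in every step, Erbb2 from P1 to P7 and from P14 to P28, and Erbb3 in the steps into and out of P14, and the widest bars are those of Nrg1 and Egf, with an SE of 1.42 and 1.33.

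Around the members, 77 other genes of the pathway were followed, of which 73 were tested. Btc, Ereg, Epgn and Fosl1 did not pass the filter, with highest normalized counts of 15.9, 5.30, 5.43 and 8.77. From P1 to P7, 2 rose and 9 fell. From P7 to P14, 10 rose and 7 fell, and from P14 to P28, 10 rose and 10 fell. The shares called were 15.1%, 23.3% and 27.4%, beside 7.7%, 20.9% and 14.4% over all genes.

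Among the other ligands, Tgfa, the transforming growth factor alpha that binds Egfr, had a P14 maximum like that of Erbb3. Its normalized counts ranged from 697 to 870 at P1, from 556 to 767 at P7, from 1462 to 2206 at P14 and from 269 to 668 at P28, and the P14 libraries lay above all others. It rose from P7 to P14 by a log2 fold change of 1.324 ± 0.30 (limma, adjusted p = 0.0061) and fell from P14 to P28 by 1.83 ± 0.30 (limma, adjusted p = 0.0020). Nrg4, a ligand of Erbb4, was low at every age and ranged from 10.6 to 30.4 at P14 and from 1.18 to 2.71 at P28 (log2 fold change -2.79, limma, adjusted p = 0.0230, and at most 0.0771 with 1 library left out). The myelin genes named above were also at their highest at P14, and their part in the level of Tgfa was not tested.

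Of 8 proteases and adaptors that release these ligands, 1 rose and 1 fell from P1 to P7: Adam10, the sheddase of EGF and betacellulin, rose by 0.65 (limma, adjusted p = 0.0149), and Adam9 fell by 0.74 (limma, adjusted p = 0.0403). From P7 to P14, 0 of the 8 were called by limma, edgeR or DESeq2, with 1, 2 and 1 at an unadjusted p under 0.05, and over the whole span from P1 to P14, 2 rose and 1 fell. From P14 to P28, 3 of the 8 fell, among them Adam19, a protease that cleaves neuregulin, from a mean of 616 to 181 (log2 fold change -1.75, limma, adjusted p = 0.0027). Rhbdf2, an inactive rhomboid that carries the sheddase Adam17 to the surface, ranged from 26.5 to 56.1 at P14 and from 0 to 6.76 at P28 (adjusted p = 0.0059 in limma). Over the 3 consecutive steps limma called 25%, 0% and 37.5% of the 8, beside 7.7%, 20.9% and 14.4% of all genes. From P1 to P14 it called 37.5% of the 8, beside 20.4% of all genes.

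Of 35 genes of signal transduction, 0 rose and 1 fell from P1 to P7, 3 rose and 3 fell from P7 to P14, and 4 rose and 1 fell from P14 to P28. That was 2.86%, 17.1% and 14.3% of the 35, beside 7.7%, 20.9% and 14.4% of all genes, so no step exceeded the share over all genes. Shc3, an adaptor of receptor tyrosine kinases, fell from a mean of 836 at P1 to 234 at P7 (log2 fold change -1.81, limma, adjusted p = 0.0020). Akt2, a kinase downstream of phosphatidylinositol 3-kinase, rose from 362 at P7 to 1438 at P14 (log2 fold change 1.99, limma, adjusted p = 1.8e-05). Map2k1, which activates ERK, rose by 1.47 in the same step (limma, adjusted p = 0.00021). From P14 to P28, Src rose by 1.02 (limma, adjusted p = 0.0347) and Mapk3, which encodes ERK1, fell by 0.87 (limma, adjusted p = 0.0110).

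Of 19 genes that restrain or turn over the receptors, 1 was higher and 3 lower from P1 to P7, 3 and 3 from P7 to P14, and 5 and 1 from P14 to P28. That was 21.05%, 31.58% and 31.58% of the 19, beside 7.7%, 20.9% and 14.4% of all genes, which also changed in both directions. Lrig1, a membrane protein that promotes the loss of ErbB receptors, had means of 4512, 1623, 3999 and 8422 at the 4 ages. Its log2 fold changes were -1.54, 1.38 and 1.09 over the 3 steps, with adjusted p-values of 0.0036, 0.0028 and 0.0196 (limma). The last step was lost with 1 library left out, at an adjusted p of up to 0.0884. Spry2, an inhibitor of the ERK pathway, fell by 1.35 from P1 to P7 (limma, adjusted p = 0.0364) and rose by 1.37 from P14 to P28 (limma, adjusted p = 0.0229). Dusp4, a phosphatase of ERK, fell from a mean of 723 at P7 to 70.4 at P14 (log2 fold change -3.47, limma, adjusted p = 3.7e-05) and rose by 1.44 to P28 (limma, adjusted p = 0.0316). Like Erbb2, Lrig1 and Spry2 fell between P1 and P7 and rose between P14 and P28.

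Of 8 tested genes known to respond to ERK, 4 fell and 0 rose from P1 to P7, beside 4.24% lower and 3.47% higher over all genes. From P7 to P14, 1 fell and 3 rose, beside 10% lower and 10.8% higher over all genes. Etv5, a transcription factor induced by ERK, had means of 2153, 636, 1955 and 3678 at the 4 ages. Its log2 fold changes were -1.78, 1.65 and 0.90 over the 3 steps, with adjusted p-values of 9.9e-05, 3.7e-05 and 0.0085 (limma). Etv1, of the same family, fell by 1.33 and then rose by 3.06 from P7 to P14 (limma, adjusted p = 1.9e-06). In that step Myc, a driver of growth, fell by 1.79 (limma, adjusted p = 0.0175). From P14 to P28, 1 of the 8 rose and 3 fell, among them Ccnd1, which encodes cyclin D1, by 1.18 (limma, adjusted p = 0.0272). Over all genes, 5.68% were higher and 8.76% lower in that step. With 1 library left out, the adjusted p of the following pathway calls rose above 0.05: Adam10 (to 0.0708), Adam9 (0.171), Src (0.104), Spry2 (0.167 and 0.0880), Dusp4 from P14 to P28 (0.112), Myc (0.0702) and Ccnd1 (0.0874). Astrocyte markers moved in these steps too: of 12, 2 rose and 7 fell from P1 to P7, 9 rose and 1 fell from P7 to P14, and 9 rose and 0 fell from P14 to P28. Their part in these changes was not tested.

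**Figure D5:**
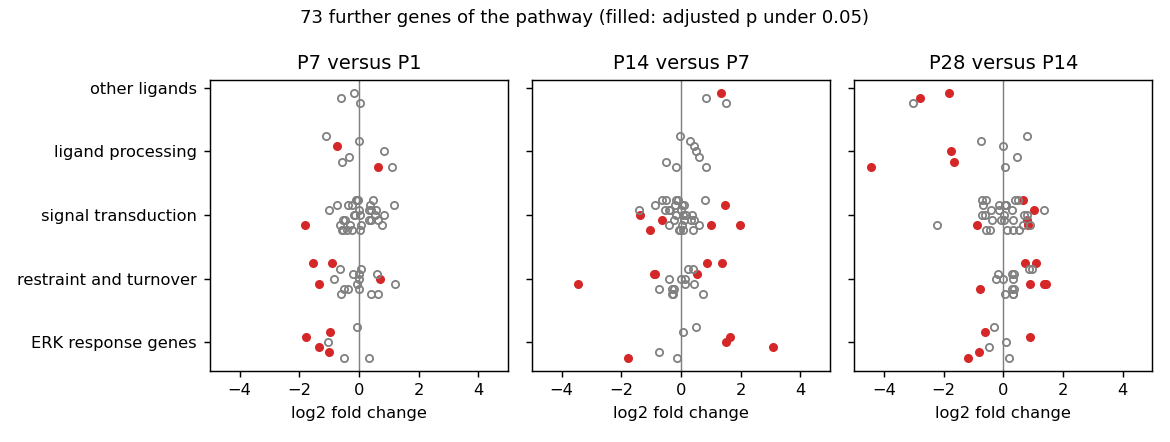
Log2 fold change of the 73 tested pathway genes in each consecutive step, grouped by role, with filled points for an adjusted p under 0.05 (limma); vertical offsets within a row only separate the points. Filled points lie mostly below 0 from P1 to P7, with 9 of 11, and on both sides in the later steps.

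The genes whose pattern over the 12 libraries was most like that of each member were ranked by Pearson's r on log2(normalized count + 1), as a description. The libraries share their ages and their preparation, so such r values run high for any gene that changes with age. For Egfr they were Frem2 (r = 0.947), Tiam2 (0.945) and Fabp7 (0.944). Fabp7, a fatty acid binding protein of radial glia, had means of 15870, 5855, 2568 and 5215 at the 4 ages. It is also 1 of the 12 astrocyte markers summed above, whose sum was highest at P28. For Erbb2 they were Itgb5 (r = 0.961), Sox21 (0.956) and Adgrb2 (0.955). For Erbb3 they were Ypel3 (r = 0.936), Rps6ka1 (0.936) and Elovl1 (0.921), of which Elovl1 makes very long-chain fatty acids and had a mean of 781 at P14 against 182 to 246 at the other ages. For Erbb4 they were Gas2 (r = 0.937), Knop1 (0.936) and Tshz2 (0.920), and for Hbegf Akr7a5 (0.957), Gys1 (0.942) and Itih5 (0.910).

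Among the other ligands, the closest genes were Fbxo17, Clptm1l and Dgcr14 for Nrg1 (r from 0.911 to 0.927) and Lipe, Ttll1 and Fam136a for Egf (r from 0.927 to 0.931). They were Phospho2, Ly6e and Amn1 for Nrg2 (r from 0.924 to 0.935) and Alg12, Ccdc96 and Akip1 for Nrg3 (r from 0.938 to 0.944). Between members, r was 0.717 for Egfr and Erbb2, -0.720 for Egfr and Erbb3, and 0.761 for Nrg1 and Egf, a pair that shares the high P28 replicate 2.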

How the data were processed

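GFP-positive cells of Aldh1l1-GFP cerebellum were sorted, and libraries were made from total RNA with the Trio RNASeq kit and read in pairs. The authors aligned reads to mm10 with STAR 2.5.0a, counted them with GenomicAlignments 1.16.0 and GenomicFeatures 1.32.2 on UCSC transcripts, and normalized them with DESeq2 (1.20.0 in the methods, 1.30.1 in the submitters' processing notes). Use of strand and of reads with several positions is not given in the sources used here. The deposited signal values are counts divided by a size factor per library: 100% of values were whole reads (tolerance 0.01). Every column name in the table carries P28, so ages rest on the labels.

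Values were tested with limma 3.58.1 (R 4.3.3) as log2(value + 1) with an intensity trend, in 1 fit of 12 libraries over the 15464 genes that reached 10 in 3 or more libraries, for all 6 pairs of ages. The pseudocount understates changes of low genes. Called means a Benjamini-Hochberg adjusted p under 0.05. The 12 pairs of libraries of the same age differed beyond sampling noise (chi-square per degree of freedom 9.57 to 72.9). Depth was 6399499 to 14733985 reads on genes, and a count of 0 allows 3 reads. Alternatives were edgeR 4.0.16 and DESeq2 1.42.0 on the recovered reads, other scalings, filters and pseudocounts, fewer ages, a replicate block and leaving out each library. The limma script was tested on simulated data. Lengths, positions and codons came from GENCODE M21.

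The members and lists were chosen with earlier results of these data known. Genes named were the 9 members, up to 2 called genes with the largest change per role and consecutive step, the 2 markers highest per length in a list, and the 3 genes most correlated with each member. A marker gene that this rule names is not reported here. Tmem119 and other marker genes outside that rule, such as Cspg4, were named only where listed at 0. Markers of the other lists were also summed: granule neurons 499 to 24834 over all libraries, granule precursors 549 to 4607, Purkinje cells 983 to 4178, microglia 449 to 2775 (Tmem119 at 0 in a P28 library), endothelium 583 to 6889 and ependyma or choroid 792 to 180415.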

Additional observations from a re-analysis of the deposited data

How the results depend on the processing

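Of the 18 called changes of members, 0 reversed in the 417 alternatives computed and 63 of these lost the call. Many of the 417 could not reverse a change, because they left the log2 fold change itself as it was. These were the replicate block, the fit without the filter, the study's threshold and fits of fewer ages. Leaving out a library of an age not compared left it as it was too. DESeq2 called 1797 genes from P1 to P7 against 1191, and 6 members from P14 to P28 against 3. The fit of P1, P7 and P14 alone, chosen after seeing the data, called 2179, 4911 and 4976 genes (P1 to P7, P7 to P14, P1 to P14), 4 members from P7 to P14, 7 from P1 to P14, and 19 and 26 pathway genes in the consecutive steps. Fits of only the ages compared called 2820 genes and 24 pathway genes from P1 to P7, 26 pathway genes from P7 to P14, 766 genes, 8 pathway genes and 1 member from P14 to P28, and 1 member from P7 to P28. With the study's threshold, 2198 genes passed from P1 to P7 and 3725 from P14 to P28. From P1 to P7, 1 member was called under TMM, edgeR, totals alone, no filter and a pseudocount of 0.1. Totals alone called 1 member from P14 to P28, and at least 10 reads in every library left 1 from P7 to P14 and 2 from P1 to P14.

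With 1 library left out, members called ranged from 1 to 2 (P1 to P7 and P7 to P14), 1 to 4 (P14 to P28 and P7 to P28), 3 to 5 (P1 to P14) and 2 to 5 (P1 to P28). Genes called ranged from 645 to 1534, 2155 to 3933 and 1233 to 2807 in the consecutive steps, from 1971 to 3894 (P1 to P14), 4625 to 6327 (P7 to P28) and 3851 to 5739 (P1 to P28), and pathway genes from 6 to 14, 12 to 23 and 10 to 24.

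None of the changes that turned sign was called in the fit of all 12 libraries. Against P7, P28 became higher for Nrg1 (2.37 in DESeq2, 2.39 in edgeR, 0.33 with a pseudocount of 10), Nrg3 (0.23, 0.27) and Egf (0.92, 0.95). Against P1 it did for Erbb3 (0.19, 0.21, 0.019 with a pseudocount of 10) and Nrg1 (1.53, 1.57). With totals alone, Nrg2 turned to -0.13 (P28 against P14) and -0.0019 (against P7). With 1 library left out, log2 fold changes of P28 against P14 ranged from -1.21 to 3.15 for Nrg1, -1.25 to 1.79 for Egf and -0.56 to 0.72 for Nrg2. P28 against P7 ranged from -2.37 to 2.00 for Nrg1, -3.05 to 0.43 for Nrg3, -0.14 to 1.07 for Nrg2, -1.39 to 0.14 for Erbb3 and -0.32 to 0.054 for Egfr. P28 against P1 ranged from -3.19 to 1.17 for Nrg1 and -0.92 to 0.60 for Erbb3, P14 against P1 from -0.33 to 0.36 for Hbegf and -0.53 to 0.077 for Nrg3, and P14 against P7 from -0.24 to 1.04 for Nrg2. The causes were not tested.

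Replicate numbers gave little sign of pairing the samples. Over 18 pairs of libraries with the same number, deviations correlated at -0.029 to 0.139 (median 0.031), and 1 pair was over 0.1. Such small values cannot exclude a shared batch. With the number as a block, members called were 2, 2, 3, 3, 3 and 4 (P1 to P7, P7 to P14, P14 to P28, P1 to P14, P7 to P28, P1 to P28), and Nrg2 from P1 to P14 was the 1 call lost. The block lowered the adjusted p of Egfr in limma to 0.0192 from P1 to P7 and to 0.0138 from P14 to P28. It raised that of Erbb3 to 0.0043 from P7 to P14 and to 0.0049 from P14 to P28. Low reads limit Erbb3 outside P14, Nrg2 at P1 and Egf at P14 and P28.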
